A study of Mus musculus with 8 samples.

Results

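Retained-intron and nonsense-mediated decay (NMD) transcripts were measured in the sorted somatostatin (SST) neurons of the mouse tuberal hypothalamus. The set held autosomal transcripts that GENCODE release M21 types as retained intron or NMD in protein-coding genes, with at least 200 estimated counts summed over 8 mice and with *Lars2* left out. Of 27946 such transcripts among the 116816 transcripts matched to the annotation, 5074 reached that minimum, 3323 of them retained-intron and 1751 NMD transcripts, in 3478 genes. Another 20297 had a count above 0 and under 200, and 2575 had none in any mouse. The transcripts next to the minimum were Exoc1-208, with 200.01 counts, and Mfsd14b-202, with 199.99 counts. The transcripts were chosen by their summed estimated counts, so the size of the set and the counts and shares of its transcripts are descriptions with no test.

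TN SST neurons of 4 female and 4 male mice were labeled, sorted and sequenced in bulk, with 1 library per mouse. All mice carried 1 Cre allele at the *Sst* locus (Ssttm2.1(cre)Zjh/J / +) on a C57BL/6J background and received the agent AAV2-flex-tdTomato, a virus that turns on a red fluorescent protein where Cre is present, in the lateral tuberal nucleus (TN). The mice were adults, and sex was the only difference between the groups that the labels give. No batch, litter or estrous stage was given for these mice in the sources used here. Live, nucleated, red cells were collected from the dissociated TN, and total RNA was made into libraries. The label marks cells in which *Sst* drove Cre, all red cells of a mouse were pooled, and no library of unsorted cells was analysed here.

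A retained-intron transcript keeps an intron, or a piece of it, that the coding transcripts of the gene remove. An NMD transcript carries its stop codon well upstream of its last exon junction, a layout that the NMD machinery recognizes during translation and that leads to decay of the RNA. Many genes for splicing factors are known to use such transcripts to limit their own protein, often through a poison exon, a short exon that brings an early stop codon.

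Introns held whole by some of the more counted named retained-intron transcripts are shown by their splice sites. These sites mark what the coding transcript would have cut. Each donor is given as the last bases of the exon and the first bases of the intron, and each acceptor as the last bases of the intron and the first bases of the next exon, 5′ to 3′ along the transcript. The capitals mark the first and the last dinucleotide of the intron, and the sequences come from the GENCODE M21 transcripts on mm10.
Ncl-202, intron 9 of 13 (chr1:86352634-86353125, - strand), donor: gtgGTaagt
Ncl-202, intron 9, acceptor: tgttatctttgtatttgcAGgtg
Ncl-202, intron 10 of 13 (chr1:86352320-86352509, - strand), donor: aggGTaaaa
Ncl-202, intron 10, acceptor: aactgactttcaaccttcAGgta
Calr-204, intron 4 of 8 (chr8:84844784-84844870, - strand), donor: aagGTgtgc
Calr-204, intron 4, acceptor: tcacctccttccctcttcAGgat
Hsp90aa1-206, intron 2 of 10 (chr12:110695419-110695518, - strand), donor: gacGTgagt
Hsp90aa1-206, intron 2, acceptor: ttttaatcttttcttaatAGgct
Cd83-202, intron 1 of 4 (chr13:43785251-43785345, + strand), donor: gcgGTacgg
Cd83-202, intron 1, acceptor: ctcccccctctctcttgtAGcct
Ddx5-202, intron 10 of 12 (chr11:106784019-106784100, - strand), donor: atgGTatgt
Ddx5-202, intron 10, acceptor: attcatggttgtctttatAGaat
Hnrnpk-227, intron 12 of 14 (chr13:58393775-58393852, - strand), donor: atgGTaagt
Hnrnpk-227, intron 12, acceptor: ctgctcattatttaaatcAGact
All of these introns begin with GT and end with AG, and all but those of *Ncl* are between 78 and 100 bases long. Other named transcripts hold longer introns, such as 823 bases in Cdc45-204 and 584 bases in Olfml3-202. The median over all held introns was 376 bases, so the short lengths describe the introns printed here.

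For some NMD transcripts, the stop codon inside an exon that no coding transcript of the gene holds is shown in capitals with its neighboring bases. The reading frame ends in that exon. Tra2b-206 and Srsf3-201 belong to splicing factor genes and hold their known poison exons.
Tra2b-206, added exon of 276 bases (chr16:22258986-22259261, - strand): ctcaggaataagTGAagctgaaatttg
Srsf3-201, added exon of 456 bases (chr17:29039454-29039909, + strand): ctcaccaccctcTGAatctgcattagc
Peg3-203, added exon of 63 bases (chr7:6712950-6713012, - strand): tgcctcagagtgTAGcacaaggatgcc
Tbca-203, added exon of 74 bases (chr13:94815111-94815184, + strand): ctctcctggcttTGAagaaggaatgga
Syt16-201, added exon of 821 bases (chr12:74162056-74162876, + strand): gctgagaagtgtTGAgagtgaaatggt
Kif21b-204, added exon of 180 bases (chr1:136173472-136173651, + strand): accaccctgcccTGAccttccccctcc
Atp2b2-206, added exon of 127 bases (chr6:113751564-113751690, - strand): gctgggcagggcTAGagaaccctggac
The stop codon is TAG in Peg3-203 and Atp2b2-206 and TGA in the others. Atp2b2-206 also holds an added exon of 172 bases upstream of the one shown, whose part in the reading frame was not tested.

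Estimated counts summed to between 7795784 and 17543060 per mouse, and the mitochondrial leucyl-tRNA synthetase gene *Lars2* held 9.34% to 34.4% of them. A count of 3, taken as the limit of detection, corresponded to 0.15 to 0.463 counts per 1000000 (CPM) and covers counting error only. Summed CPM of 6 neuron markers was 1679 to 2065 in females and 1256 to 1588 in males, and that of 4 SST and GABAergic neuron markers 987 to 1568 and 883 to 1350. Markers of other cells were present, with 215 to 1299 CPM in females and 508 to 2545 CPM in males for 7 microglia genes, 139 to 395 and 347 to 493 CPM for 5 astrocyte genes, 215 to 938 and 380 to 918 CPM for 5 oligodendrocyte genes, and 23.0 to 73.3 and 29.7 to 83.7 CPM for 4 endothelial genes. Beyond a fit with the microglia markers as covariate, the part of these cells in the transcript shares was not tested. In bulk RNA, fewer cells of a type and less RNA per cell cannot be told apart.

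The 5074 transcripts together held 6.86% of all counts outside *Lars2*, and 16.8% of the counts of their own genes. Of the counts of a gene summed over the mice, the median retained-intron transcript held 8.65% (quartiles 3.95% and 17.5%) and the median NMD transcript 16.8% (quartiles 7.99% and 32.4%). Summed over all transcripts of a class, the share of gene counts was 10.9%, 11.01%, 11.7% and 12.03% for retained introns in females 1 to 4, in that order, and 11.1%, 12.04%, 11.1% and 11.7% in males 1 to 4. For NMD transcripts it was 19.3%, 19.6%, 19.1% and 19.9% in the females and 19.5%, 20.5%, 20.1% and 20.2% in the males. The sexes overlapped for both classes, with 11.4% ± 0.566 in females and 11.5% ± 0.448 in males for retained introns and 19.5% ± 0.331 and 20.1% ± 0.426 for NMD (SD, n = 4 mice each).

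Most transcripts were minor forms of their gene, and a minority was the main form. A share under 5% was found for 1066 retained-intron and 238 NMD transcripts. A share over 50% was found for 131 retained-intron transcripts (3.94%) and 202 NMD transcripts (11.5%), and 170 of these 333 stayed above 50% in every mouse. Counted per gene, the transcripts of both classes together held a median of 17.8% of the counts, against 75.1% for protein-coding transcripts, and passed 50% in 473 genes (13.6%). Of the genes, 2401 had 1 such transcript, 1077 had 2 or more and 503 had both classes. *Bclaf1*, a gene for an RNA-binding protein singled out after its values were seen, had the most, with 7.

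**Figure D1:**
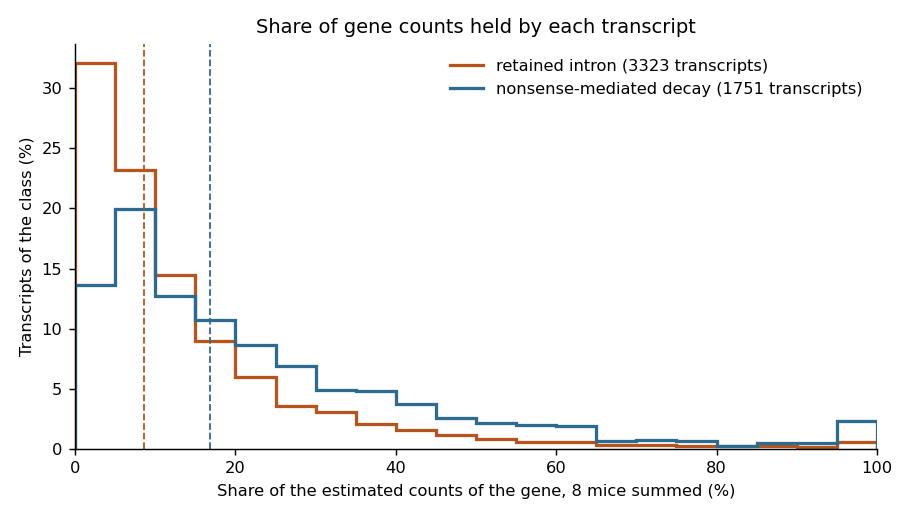
Histogram of the share of gene counts held by each transcript, in percent of the estimated counts of its gene summed over 8 mice (x axis, bins of 5 percentage points), as percent of the transcripts of its class (y axis), with dashed lines at the class medians of 8.65% (retained intron) and 16.8% (NMD). Both classes pile up at low shares, and 11.5% of the NMD and 3.94% of the retained-intron transcripts lie above 50%.

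The shares differed between the scales and with the sequence that transcripts have in common. On the deposited TPM scale, which corrects for length, the median share was 10.4% for retained introns and 18.9% for NMD, and 221 transcripts passed 50% on both scales. Of the 31-base words (31-mers) that kallisto uses to place reads, a median of 95.4% in NMD transcripts and 60.02% in retained-intron transcripts also occurred in a protein-coding transcript of the same gene. The 127 NMD transcripts with under 50% of such words had a median share of 33.5%, the 417 with 50% to 90% one of 12.3% and the 1207 with 90% or more one of 17.7%. In retained-intron transcripts the medians of the same bins were 6.66% (1349 transcripts), 9.19% (1572) and 12.9% (402). In 562 transcripts more than 20% of the words also occurred in another gene, and 90 of the 333 main forms were among these, so that these counts are uncertain.

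Values came in 2 blocks of counts per mouse, which gave a repeat of each share. The median SD of a share between the blocks of a mouse was 3.95 percentage points, and between mice of a sex 3.86 percentage points. The block SD was under the mouse SD in 49.0% of the transcripts. What the blocks are was not stated. A block share rests on the counts of a single block, and a mouse share on both blocks summed. The 2 SDs thus rest on unequal counts and cannot show whether mice differed more than repeats of a mouse.

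The most counted retained-intron transcripts came from genes for chaperones, a calmodulin and other abundant proteins. Ncl-202 of nucleolin, a nucleolar protein of ribosome assembly, held 89.0%, 90.7%, 88.0% and 89.9% of the *Ncl* counts in the females and 90.6%, 91.9%, 89.4% and 90.5% in the males, with 57769 counts in all. Every mouse lay near 90% and the sexes overlapped. Uchl1-202, from the gene for a neuronal ubiquitin hydrolase, held 81.4% to 88.7%, the sexes again overlapping. Calr-204, from the gene for the endoplasmic reticulum chaperone calreticulin, held 65.1%, 64.4%, 63.4% and 64.7% in the females and 62.8%, 62.6%, 61.6% and 61.9% in the males, with all females above all males but an edgeR share test adjusted p of 1.00. Calm2-203 held 65.8% to 71.3% of the counts of a calmodulin gene, but 43.1% of its 31-mers also occur in other genes. Aplp1-202 (15.8% to 18.8%) and Hsp90aa1-206 (14.8% to 19.3%, with 75.4% of its 31-mers in other genes) were minor forms by counts. On the TPM scale these short transcripts came to 60.8% and 42.0% of their genes. Rpl23a-202 held 99.2% to 100% of the counts of a ribosomal protein gene, and 81.7% of its 31-mers occur in other genes.

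The most counted NMD transcripts included several of signaling and protein turnover genes. Ttc3-233 and Ttc3-232, of an E3 ubiquitin ligase gene, held 17.5% to 18.9% and 10.5% to 15.2% of the *Ttc3* counts. Ptprn2-204, from a gene for a receptor-like protein of secretory granules, held 82.4%, 92.3%, 86.4% and 86.1% in the females and 79.9%, 82.7%, 90.8% and 86.2% in the males. It was the main form in every mouse. Ndfip1-206, of an adaptor for ubiquitin ligases, held 61.6% to 67.1%, and Ywhae-203, of a 14-3-3 protein gene, 33.9% to 41.8%. Cbarp-212, from a gene for a regulator of calcium channels, ranged from 28.7% to 65.6% over the mice, and its share differed by up to 30.1 percentage points between the blocks of a mouse. Peg3-203, of an imprinted zinc finger gene, held 8.87% to 11.1%. Every 31-mer of Ttc3-232, Cbarp-212 and Peg3-203 also occurs in another transcript, so their counts are uncertain. Rpsa-206 held 85.0% to 89.2% of a ribosomal protein gene, and 78.2% of its 31-mers occur in other genes. By TPM the share was 3.78% for Ttc3-232, 23.5% for Cbarp-212 and 23.1% for Peg3-203, against 12.4%, 46.5% and 10.03% by counts.

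**Figure D2:**
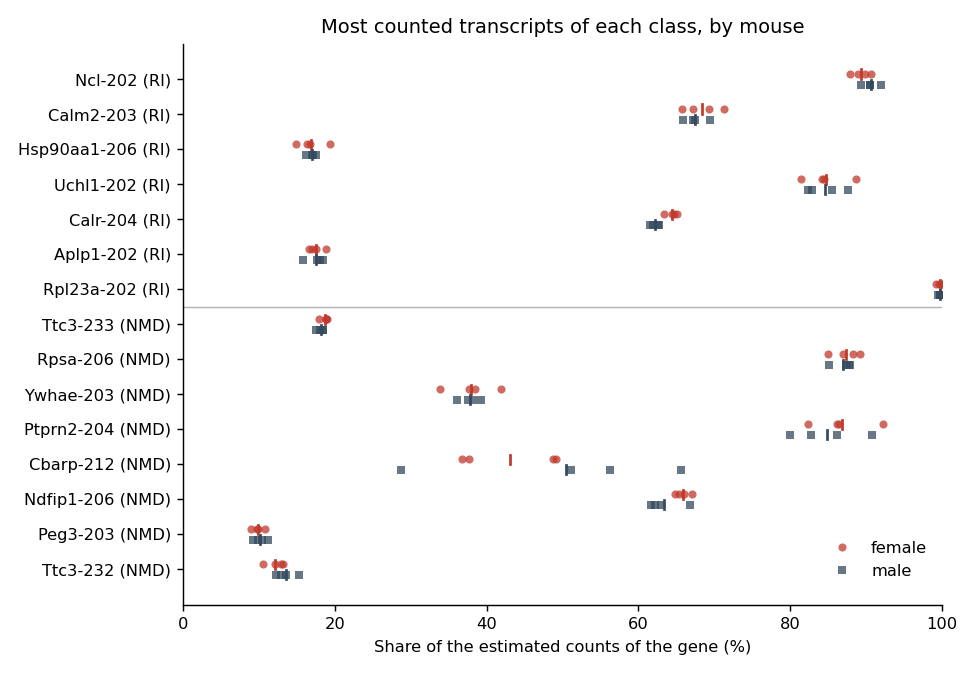
Share of gene counts in percent (x axis) for 7 of the 8 retained-intron (RI) and all 8 NMD transcripts with most counts, with a circle for each female, a square for each male and a short line at each sex mean (n = 4 each). Points of the sexes overlap for all but Calr-204, and Cbarp-212 has the widest spread, 28.7% to 65.6%.

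In genes of at least 2000 counts, the largest shares among retained-intron transcripts were those of Rpl23a-202 and 5 others. Cd83-202, of an immune cell surface protein gene, held 96.4% to 99.4% of the *Cd83* counts and holds 95 bases outside coding exons, those of intron 1. Cdc45-204 (92.4% to 98.7%), of a DNA replication gene, is a single exon that runs through introns 2 and 3, and 1254 of its 1484 bases lie outside coding exons. Gm14391-205 (90.5% to 96.6%), of a gene named only by number, runs through the introns of 2 coding transcripts. Rps26-202 held 94.8% to 97.9%, and 49.7% of its 31-mers occur in other genes. Olfml3-202, of a secreted glycoprotein gene, held 88.9%, 72.6%, 77.5% and 80.7% in the females and 90.3%, 95.8%, 89.9% and 96.2% in the males. The males lay above the females, by 13.1 percentage points in the means of 79.9% ± 6.87 and 93.1% ± 3.39 (SD, n = 4 each), while edgeR's share test gave an adjusted p of 1.00. Shares differed by up to 15.97 percentage points between its blocks. *Cd83* and *Olfml3* are expressed by microglia, and the microglia markers, which were higher in males at both ends of their range, were not tested for their part in either gene.

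Among NMD transcripts the largest shares were those of Tbca-203 (91.8% to 100%, with 28.9% of its 31-mers in other genes), of a tubulin folding cofactor, Pik3cb-203 (81.7% to 99.6%), of a phosphoinositide kinase subunit, Syt16-201 (85.0% to 94.6%), of a synaptotagmin, and Kif21b-204 (66.0% to 98.2%), of a kinesin motor. Rpsa-206, given above, was also among them. Gm28036-201 ranged from 66.0% to 100%, and 99.5% of its 31-mers occur in other genes and none is its alone. Tbca-203, Syt16-201 and Kif21b-204 each hold an added exon with the stop codon printed above, and Pik3cb-203 holds 415 bases outside coding exons.

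Of the retained-intron transcripts, 1342 held at least 1 whole intron of a coding transcript and 785 held exactly 1. The other 1981 held none whole, and 1940 of these started or ended in a place that no coding exon covers. The median share was 9.67% with a whole intron and 7.92% without. The 2353 distinct held introns had a median length of 376 bases (quartiles 152 and 970), against 1242 bases (quartiles 402 and 3255) for the 42672 coding introns of the same genes, and 51.7% against 24.9% were under 400 bases. Held introns of transcripts under the 200-count minimum had a median of 241 bases, so held introns were short below the minimum as well. Of the held introns, 97.5% had GT and AG at their ends, 32 had GC and AG, and 4 had AT and AC. The first intron made up 11.2% and the last 7.82%, where an even draw over the introns of each transcript gives 11.5%. A whole small nucleolar RNA gene lay inside 30 transcripts of both classes, whose median share was 6.09%, and the counted transcripts included 0 small RNA genes.

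**Figure D3:**
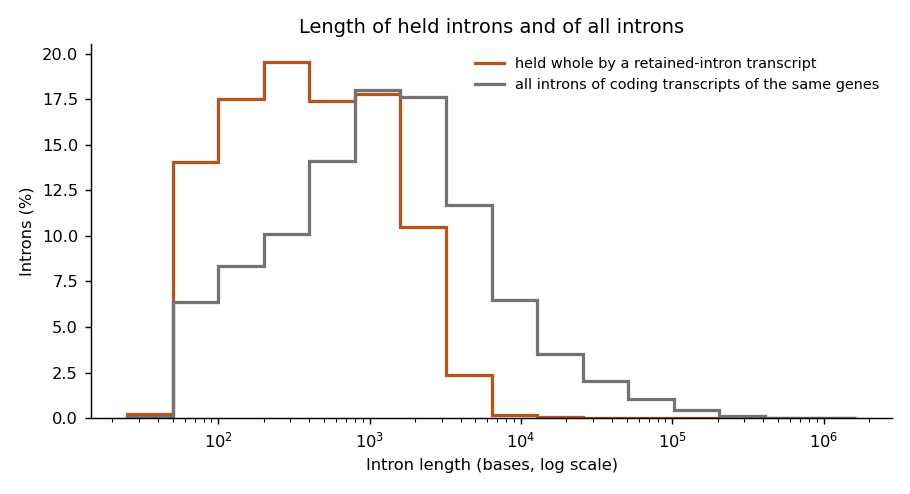
Length of introns in bases (x axis, log scale, bins that double in width) as percent of introns (y axis) for the 2353 introns held whole by a retained-intron transcript and for the 42672 introns of coding transcripts of the same genes. The held introns lie to the left, with medians of 376 and 1242 bases.

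The NMD transcripts had the layout of their class. They were chosen by their annotated type, which rests on this layout, so its frequency describes the annotation and is not a result of these data. The stop codon lay more than 50 bases upstream of the last junction in 1741 of 1751 (99.4%), at a median of 502 bases, and 1439 had 2 or more junctions after the stop. No base outside the coding exons was found in 730. An internal exon apart from all coding exons was found in 432, with 485 such exons in all, and their stop codon lay at least in part in that exon in 314. These exons had a median of 102 bases, and 65.0% were not a multiple of 3 long, against a median of 118 bases and 59.1% among 5020 internal coding exons of the same genes. The median share was 14.5% for transcripts with such an exon and 17.5% for the other NMD transcripts.

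Among the 9050 autosomal coding genes with at least 1000 counts outside *Lars2*, 35.3% had at least 1 transcript of the set, and 69.2% had any annotated transcript of the classes. The share with at least 1 was 81.3% for SR proteins (13 of 16 genes), splicing activators rich in serine and arginine, 87.5% for the kinases that phosphorylate them (7 of 8), 65.1% for spliceosome components (28 of 43) and 62.1% for hnRNP and related proteins (18 of 29). It was 52.2% for neuronal splicing regulators (12 of 23), 47.9% for synaptic and channel genes (23 of 48), 46.0% for ribosomal proteins (34 of 74), 43.8% for NMD factors and the exon junction complex (7 of 16) and 18.2% for feeding peptides and hormone receptors (4 of 22). Genes of the lists had medians of 5641 to 24542 counts, against 3592 for all 9050, and a transcript reaches 200 counts more easily in a gene with more counts. An annotated transcript of the classes was likewise found in 87.5% of SR protein genes, 100% of the kinases and 88.4% of spliceosome components, but in 62.5% of the NMD factors and 40.9% of the feeding peptides and hormone receptors. The lists were described by these counts and were not tested.

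In the SR protein genes, 36 transcripts had a median share of 6.53% and together 17.0% of the counts of their genes. Those with most counts were Tra2b-206, Srsf3-201 and Srsf6-201. Tra2b-206 held 47.7%, 42.5%, 44.8% and 47.1% of *Tra2b* in the females and 43.6%, 59.3%, 43.3% and 30.3% in the males. Srsf3-201 held 42.0% to 58.8% of *Srsf3* and Srsf6-201 27.1% to 36.9% of *Srsf6*. The sexes overlapped in all 3. The 2 scales disagreed for Srsf3-201, with 51.7% of the counts and 16.6% of the TPM, and for Srsf6-201, with 31.7% and 50.9%. Of the 31-mers, 40.9% in Tra2b-206 and 36.8% in Srsf3-201 occur in other genes. Srsf3-201 has no 31-mer that is its alone, so its counts are uncertain.

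The SR protein kinases had the largest combined share, 51.4% over 14 transcripts. Srpk2-204 held 60.1% to 66.8% of *Srpk2*, and the pair Prpf4b-208 and Prpf4b-206 held 45.4% to 62.6% and 22.4% to 35.2% of *Prpf4b*. In the hnRNP list (43 transcripts, 27.6% combined), Hnrnpu-206 held 66.5% to 72.2%, Hnrnpa2b1-209 18.5% to 24.9% and Hnrnpk-227 13.9% to 17.9%. In the spliceosome list (65 transcripts, 24.3%), Luc7l3-204 held 35.3% to 48.8%, and Ddx5-208 and Ddx5-202, of an RNA helicase gene, 7.07% to 9.96% and 5.54% to 7.88%. Among NMD factors (10 transcripts, 23.7%), Smg1-204, of the kinase that starts NMD, held 40.9% to 53.1%, Acin1-223 3.81% to 10.7% and Rnps1-210 7.05% to 13.01%. Of the 31-mers, 70.2% of those of Rnps1-210, 42.4% of Hnrnpk-227, 30.4% of Ddx5-208 and 28.6% of Ddx5-202 occur in other genes. Prpf4b-208 and Hnrnpa2b1-209 have no 31-mer that is theirs alone. Among the neuronal splicing regulators (22 transcripts, 15.9%), Khdrbs1-202 held 50.04% to 66.2%, Celf2-228 24.0% to 30.9% and Qk-202, of the quaking RNA-binding protein, 11.8% to 31.8%. The scales differed by over 1.5 times, counts first and TPM second, for Luc7l3-204 (42.4% and 23.6%), Ddx5-208 (8.64% and 3.03%), Ddx5-202 (6.87% and 15.5%), Smg1-204 (45.4% and 26.9%), Prpf4b-206 (26.2% and 43.2%), Acin1-223 (7.57% and 16.5%), Rnps1-210 (9.41% and 22.8%) and Qk-202 (17.7% and 9.03%).

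The ribosomal protein genes had 53 transcripts with 38.0% of the counts combined, Rpsa-206 and Rpl23a-202 among them, but 48 of the 53 had over 20% of their 31-mers in other genes. The synaptic and channel genes had 43 transcripts with 9.49%, among them Atp2b2-206 (13.5% to 33.0%), of a calcium pump, and Gria2-203 (7.62% to 18.6%), of an AMPA receptor subunit. The feeding peptides and hormone receptors had 4 with 7.70%, of which Adipor2-203 held 5.65% to 23.7% of an adiponectin receptor gene (11.01% by counts and 23.01% by TPM over all mice), Nr3c2-208 up to 25.2% of the mineralocorticoid receptor gene, with close to 0 in male 1, and Pgr-203 2.14% to 8.90% of the progesterone receptor gene.

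**Figure D4:**
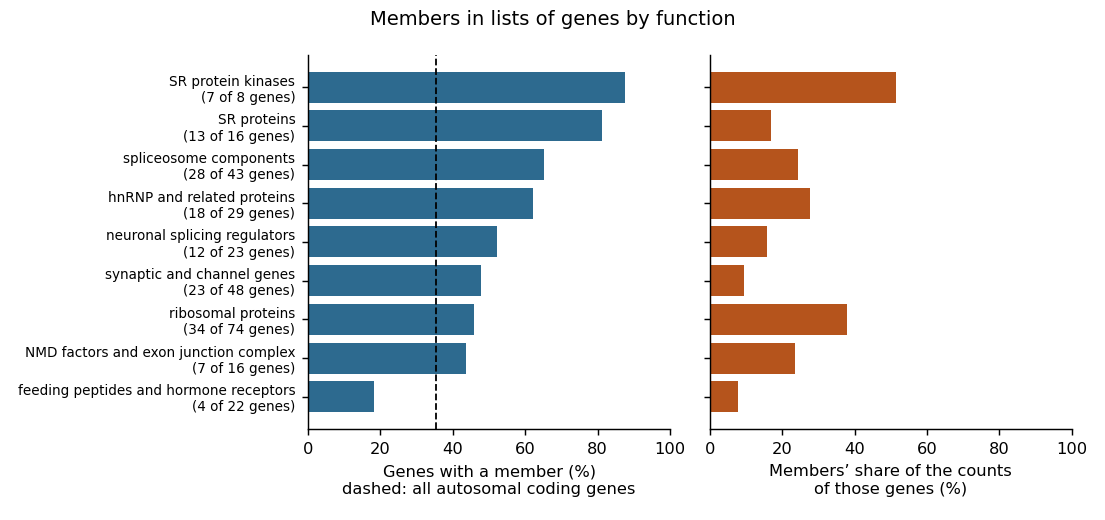
For each list of genes by function, percent of its genes of at least 1000 counts that have a retained-intron or NMD transcript of at least 200 counts (left, with a dashed line at the 35.3% of all 9050 autosomal coding genes) and the share of the counts of those genes that these transcripts hold (right). Every list but the feeding peptides and hormone receptors (18.2%) stands above the dashed line, and the kinases have the largest combined share, 51.4%.

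Female and male mice were then compared across all transcripts, and the p-values given as adjusted were adjusted over all transcripts tested. Exact permutation tests were run on single named transcripts, and their p-values were not adjusted. The set was chosen on counts summed over both sexes, so a transcript that only 1 sex carried past the minimum had to differ. Among the transcripts named for their p-values, Farsb-204 (0.84 counts in females, 660 in males), Camsap3-208 (235.6 and 26.5), Eno2-203 (907.5 and 23.95), Tnik-212 (842 and 39.7), Psd3-210 (112 and 509), Nfkbie-202 (100.3 and 380), Dnm1-209 (990 and 123) and Nsd2-209 (87.0 and 311) passed it through the sex where they were high, and their place in the set is not evidence of a difference. In level, 0 of 5044 tested retained-intron and NMD transcripts differed between the sexes at an adjusted p under 0.05 (quasi-likelihood test of edgeR, adjusted by Benjamini-Hochberg), where 0.00761% of all 39401 transcripts did (0.00254% higher in females, 0.00508% higher in males). At an unadjusted p under 0.05 there were 255 (5.06%, against 7.11% of all transcripts), and DESeq2 gave 21 (0.416%, against 1.2%), 9 higher in females (against 0.754% of all transcripts) and 12 in males (against 0.444%). The CPM of the sexes did not overlap for 216 (4.28%, against 5.49%), 138 higher in females (against 3.11%) and 78 in males (against 2.39%). The median log2 fold change, female over male, was 0.06 over the transcripts of both classes and 0.00 over all transcripts, with 0.09 for retained introns (1920 of 3319 above 0) and 0.00 for NMD (869 of 1725 above 0).

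In share of the gene, 1 of 4950 tested transcripts was called between the sexes at an adjusted p under 0.05, where 0.0352% of all 34091 did (edgeR's transcript-level test of each transcript against the others of its gene). At an unadjusted p under 0.05 there were 37 (0.747%, against 1.53%). Shares of the sexes did not overlap for 165 transcripts (3.33%, against 3.28%), 111 higher in females (2.24%, against 1.72%) and 54 in males (1.09%, against 1.55%). The share over both directions was close to that of all transcripts.

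The transcript past the threshold was Farsb-204, an NMD transcript of *Farsb* (chr1:78425085-78488862, - strand), the gene for the beta subunit of cytosolic phenylalanyl-tRNA synthetase. It had 0, 0.442, 0 and 0.398 estimated counts in the females and 113, 186, 254 and 107 in the males. All 4 females were under the limit of detection, and all 4 males were far above it. In share of the *Farsb* counts the males had 18.1%, 37.2%, 46.4% and 32.3%, and no female passed 0.138%. The coding transcript Farsb-201 held 72.8%, 82.7%, 82.0% and 74.2% in the females and 63.7%, 51.2%, 42.1% and 51.9% in the males. Its groups did not overlap either, but shares within a gene depend on each other, so this is not a separate result. The share of Farsb-204 was 0.0526% ± 0.0663 in females and 33.5% ± 11.8 in males (SD, n = 4 each, edgeR share test adjusted p = 2.36e-06, 2-sided exact permutation test p = 0.0286, the smallest that 4 mice against 4 allow). On simulated data this share test called transcripts of unchanged genes more often than its threshold allows, so this adjusted p may be too small. The simulation drew the transcripts of a gene independently, so it cannot give the size of that excess here. The level of *Farsb* as a whole did not pass the test, at 0.04 on the log2 scale, female over male (standard error 0.0941, edgeR adjusted p = 0.840).

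Farsb-204 is distinguished by 1 junction. It leaves the same donor as Farsb-201 but joins 98 bases into exon 3 of 17, so that chr1:78480014-78480111 is left out, and 98 leaves a remainder of 2 when divided by 3. The sequences across the junction are shown with the start of the joined exon in capitals.
Farsb-201: gaacttgatgaaattACTTCTGAAAAGCAA
Farsb-204: gaacttgatgaaattATACGACCTCCTGTG
The bases left out end in an AG, shown in capitals, which is the usual end of an intron.
End of the bases left out: cgtccctgccaacAG
The new frame reaches a stop codon 75 bases after the junction, shown in capitals.
Stop of Farsb-204: agctccggtataTAAgcgagtgatgcc
No base of Farsb-204 lies outside coding exons, and 1.64% of its 31-mers occur in no other transcript, so its counts rest on reads across few positions.

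In level, Farsb-204 was at least 52.3-fold higher in males than the limit of detection in females (15.96 ± 6.003 CPM in males, SD, n = 4). edgeR gave an unadjusted p of 1.50e-05 and an adjusted p of 0.0842, which missed the threshold, and DESeq2 an adjusted p of 7.78e-15. Over the alternatives the adjusted p in level went from 7.78e-15 with DESeq2 to 0.849 with the replicate block, and in share from 1.64e-06 with no filter on low counts to 0.126 with limma at a pseudocount of 5. Both blocks showed the difference, with 19.1%, 47.6%, 45.9% and 22.2% in the males in the first block, 16.6%, 28.0%, 47.0% and 41.5% in the second, and at most 0.371% in any female block. The summed microglia markers overlapped between the sexes, and with their mean as a covariate the adjusted p of edgeR was 0.000392 in share and 0.683 in level.

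**Figure D5:**
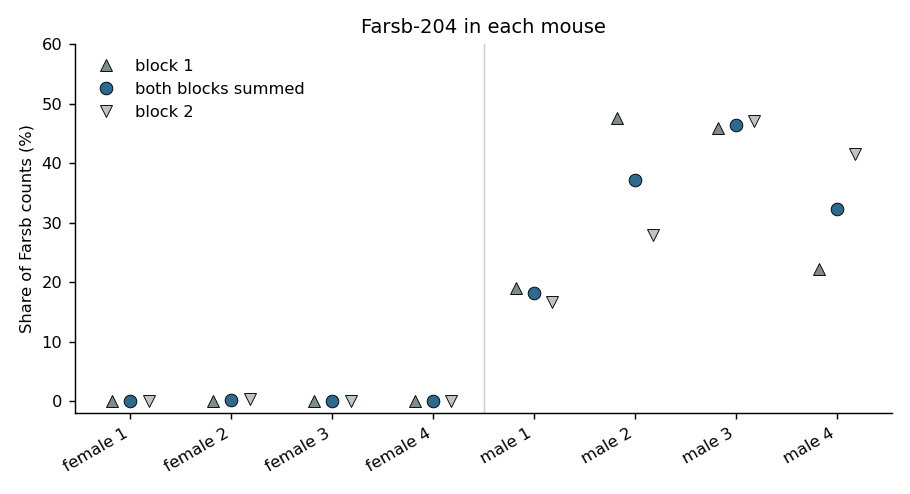
Share of the *Farsb* counts held by Farsb-204 in percent (y axis) in each mouse (x axis), with triangles for the blocks of counts and a circle for their sum. The females lie at 0.371% or less in every block and the males between 16.6% and 47.6%.

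The other transcripts with the smallest p-values passed neither edgeR test. In level, Gria2-203 had 66.8, 76.1, 103 and 115 CPM in the females and 45.7, 44.1, 37.0 and 46.5 CPM in the males, a log2 fold change of 1.06 (standard error 0.186, edgeR adjusted p = 0.353). The sexes did not overlap, and *Gria2* as a whole had a log2 fold change of 0.45 (edgeR adjusted p = 0.101). Palm2-204 had 18.5 to 21.8 CPM in females and 10.3 to 13.2 CPM in males, a log2 fold change of 0.82 (edgeR adjusted p = 0.427). Of its 31-mers, 93.4% occur in another gene and none is its alone. Camsap3-208, which holds 2 introns of a microtubule-binding protein gene, had 2.37 to 6.84 CPM in females and 0.370 to 1.15 CPM in males, the latter near the limit of detection (edgeR adjusted p = 0.445). Higher in males were Psd3-210, of a synaptic exchange factor gene, with 1.797 to 3.24 CPM in females and 5.16 to 19.6 CPM in males (log2 fold change -2.29, edgeR adjusted p = 0.380), and Nfkbie-202, of an NF-kappa-B inhibitor gene, with 1.98 to 2.59 and 4.12 to 12.2 CPM (log2 fold change -2.06, edgeR adjusted p = 0.380). With the mean of the microglia markers as covariate the edgeR adjusted p of each of these 5 was 1.00. DESeq2 called 3 of them in level, with adjusted p of 1.99e-04 for Gria2-203, 1.98e-04 for Palm2-204 and 4.94e-04 for Psd3-210. Between the blocks of a mouse, the share in the gene differed by up to 48.9 percentage points for Nfkbie-202 and 32.2 for Palm2-204. The largest block difference was 10.9 for Camsap3-208, 9.36 for Gria2-203 and 2.06 for Psd3-210.

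In share, Eno2-203, a retained-intron transcript of neuronal enolase, held 3.85%, 1.17%, 3.12% and 3.51% of the *Eno2* counts in females 1 to 4, and in males 0.412% in male 3 and close to 0 in the others (edgeR adjusted p = 0.261, and 4.32e-05 without male 3). Dnm1-209, of dynamin 1, held 0.343% to 2.66% in females and up to 0.766% in males (edgeR adjusted p = 1.00). Tnik-212, of a neuronal kinase gene, held over 8% in females 1 and 3 only, and up to 1.17% in males (edgeR adjusted p = 1.00). Nsd2-209, of a histone methyltransferase gene, held 3.47% in female 3 and nothing or close to it in the other females, and 0.551% to 13.2% in males (edgeR adjusted p = 1.00, and 0.000237 without female 3). Psd3-210 held 0.718% to 1.40% in females and 2.69% to 8.43% in males (edgeR adjusted p = 0.900). Except for Psd3-210 and Eno2-203, the sexes overlapped. Every 31-mer of Eno2-203 also occurs in another transcript, so its counts are uncertain. The blocks of a mouse differed by up to 8.41 percentage points for Eno2-203, 4.27 for Dnm1-209 and 17.4 for Nsd2-209, more than the largest share of each in any mouse, and by up to 5.36 for Tnik-212 and 2.06 for Psd3-210.

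No transcript of the gene lists passed edgeR's level or share test. DESeq2 called 4 of 53 ribosomal, 1 of 43 synaptic and 1 of 22 neuronal splicing transcripts in level, where it called 1.2% of all transcripts. Among those called by DESeq2 were Gria2-203 (adjusted p = 1.99e-04), Rpsa-206 (adjusted p = 0.0268) and Celf2-228 (adjusted p = 0.0336). The 53 ribosomal protein transcripts had a median log2 fold change of -0.36, with 10 whose males lay above the females, against 2.39% of all transcripts, and none the other way. Their genes had a median of -0.41, so the direction was that of the genes. The 43 synaptic and channel transcripts had a median of 0.41, with 2 whose females lay above the males, against 3.11% of all transcripts, and their genes a median of 0.35. The SR protein transcripts had a median of 0.06, the spliceosome transcripts 0.03 and the SR kinase transcripts 0.01. For the neuronal splicing regulators it was 0.17, for the hnRNP list -0.09, for the NMD factors -0.09 and for the 4 transcripts of feeding peptides and hormone receptors -0.30. The summed neuron markers did not overlap between the sexes (1679 to 2065 CPM in females, 1256 to 1588 CPM in males), and their part in these values was not tested.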

How the data were processed

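The authors sequenced 1 total RNA library per mouse, used kallisto 0.46.2 and mm10 transcripts per the labels and deposited estimated counts and TPM values for each of 118489 transcripts, in 2 blocks per mouse whose nature is not given in the sources used here. The blocks were added for counts and averaged for TPM (transcripts per 1000000). Transcripts were joined to GENCODE M21, where 1673 transcripts, 0.411% to 0.595% of the counts, had no match and were dropped. A read from inside an intron can be assigned only to a transcript whose exons hold it, and unspliced RNA was not told apart from retained-intron transcripts.

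A share is the counts of a transcript over those of its gene. Counts were rounded and compared with edgeR 4.0.16 in R 4.3.3 (TMM, filterByExpr, quasi-likelihood fit, adjusted p under 0.05), with DESeq2 1.42.0 and limma 3.58.1 on log2 odds as alternatives. Standard errors are the fold change over the root of the test's F. The depth was 7795784 to 17543060 counts per mouse. CPM are counts per 1000000. P-values set the sex difference against the variation between these mice. The uncertainty of assigning reads to transcripts was not modelled apart from it. The fits were tested on simulated data, where both missed most of the smallest changes and the share test called transcripts of unchanged genes more often than its threshold allows. Python 3.11.15, numpy 2.4.6, pandas 2.3.3, scipy 1.17.1 and matplotlib 3.10.9 served for the rest.

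Transcripts named were, per class, the 8 with most counts and the 6 with the largest share in genes of at least 2000 counts with another counted transcript, the 3 per direction with the smallest p in the level and in the share test (fewer than 3 passed), and the 3 with most counts in each gene list. Of these transcripts, 3 are not reported here. The set, the lists and these rules were chosen with earlier results of these data known. Alternatives were other normalization and filters, each block, no *Lars2*, the microglia mean as covariate, a replicate block, a minimum of 500 counts, TPM shares, shares against protein-coding transcripts and leaving out each mouse.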

Additional observations from a re-analysis of the deposited data

Results flagged for a closer look

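A mouse stood apart from the other 3 of its sex in 14 of 122 groups examined for shares, where about 1 in 20 (6.1) are reached by chance. The median share of the NMD transcripts was 14.4% in male 4 and 15.2% to 15.4% in the other males. Among single transcripts, female 4 had the lowest share of Ttc3-233 (17.84%, others 18.85% to 18.92%), of Gm28036-201 (66.0%, others 99.8% to 100%) and of Rps26-202 (94.8%, others 97.7% to 97.9%). Male 2 had the lowest share of Rpsa-206 (85.1%, others 87.4% to 87.9%) and of Kif21b-204 (66.0%, others 95.3% to 98.2%), and the highest of Adipor2-203 (23.7%, others 5.65% to 6.51%). Female 1 had the lowest share of Dnm1-209 (0.343%, others 2.44% to 2.66%) and of Srpk2-204 (60.1%, others 65.5% to 66.3%). Female 3 had the lowest share of Luc7l3-204 (38.0%, others 47.5% to 48.8%) and the highest of Nsd2-209 (3.47%, others near 0). Male 1 had the highest share of Camsap3-208 (3.10%, others 1.31% to 1.58%) and of Tnik-212 (1.17%, others close to 0), and male 3 the highest of Eno2-203 (0.412%, others close to 0).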

How the results depend on the processing

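The number of transcripts of the set that differed in level was 0 in the edgeR fits with other size factors, a stricter filter, each block, no *Lars2*, the microglia covariate, the replicate block and each mouse left out, 1 with no filter on low counts and 21 with DESeq2. In share it was 1 as reported, 4 with no filter, 2 with the replicate block, 2 and 3 on the first and second block alone and 0 with limma at a pseudocount of 5. With a mouse left out it was 1 to 5, namely 2 when female 1, female 3 or male 2 was dropped, 3 for female 4 or male 1, and 5 for male 3. Farsb-204 was called in all of these share fits but limma at a pseudocount of 5. No label pairs the mice by replicate number. Correlations of same-numbered mice were -0.0991 to 0.0231, which cannot show whether they shared a litter or batch.

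The mean over mice of the median share of retained-intron transcripts was 7.94%, and 9.57% by TPM, 13.7% with a minimum of 500 counts and 9.96% against protein-coding transcripts. For NMD it was 15.05%, and 18.4%, 22.4% and 19.5% in the same order and 14.3% on the first block. The combined share was 11.4% for retained introns, and 22.9%, 15.2% and 12.5%, and 19.8% for NMD, and 26.3%, 23.6% and 21.9%. The difference in share of Farsb-204, female minus male, was -33.4 percentage points, and -38.6 to -29.1 with a mouse left out (exact permutation test p = 0.0571 with any of the females dropped, where the fit across all transcripts still called it). The cause of these changes was not tested. In the fits and exact tests run on the transcripts named from the sex comparison, no direction reversed.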
